A study of Mus musculus with 6 samples.

Results

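Marker genes of the choroid plexus and of the ependyma, 2 tissues of the brain ventricles, were followed through hippocampal RNA of quadruple knockout and wildtype mice, as a check of ventricular tissue attached to the dissected hippocampus. The list held 9 genes, and a gene was taken where the platform annotation gave a probe set its symbol alone. This applied to 7 of the 9, Ttr, Kl, Folr1, Clic6, Aqp1, Otx2 and Foxj1, out of 22180 genes so named on the array, and each of the 7 had 1 probe set. Kcnj13 shares its probe set with Gigyf2, and the annotation used here names no probe set for Enpp2, so neither gene was analysed.

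The 3 quadruple knockout samples carry the genotype Tnc -/-, Tnr -/-, Bcan -/- and Ncan -/- and thus lack tenascin-C, tenascin-R, brevican and neurocan of the extracellular matrix. The 3 wildtype samples have intact copies of these genes. All 6 came from the hippocampus of male mice at postnatal day 21. By the methods these mice were siblings, and the colony was SV129. The sources used here do not say how the choroid plexus was handled during dissection.

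The choroid plexus is a folded epithelium on a vascular stroma that hangs into the ventricles and secretes the cerebrospinal fluid. Its cells make transthyretin in great quantity, take up folate and move ions and water. The ependyma is the ciliated cell layer of the ventricle wall, whose motile cilia stir that fluid. The hippocampus forms a wall of the lateral ventricle, and the plexus is attached along the fimbria at its edge. In bulk RNA, fewer cells of a type and less RNA per cell cannot be told apart.

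Signals are log2 values normalized by the authors with Robust Multichip Average, and a level is read only against other arrays or against the background level, not against another gene. That level was 6.03, the 95th percentile of the mean signals of 1108 olfactory receptor probe sets. Array medians ran from 6.30 to 6.33 for the knockout and from 6.34 to 6.39 for the wildtype, and upper quartiles from 8.42 to 8.43 and from 8.35 to 8.41, so an offset of this size runs with genotype. The targeted Bcan read 5.72 to 5.85 in knockout and 10.36 to 10.68 in wildtype arrays, and Ncan 6.35 to 6.81 and 11.73 to 11.82. Tnc had means of 7.96 and 8.11 and Tnr of 11.62 and 11.71, and where the probes lie within these 2 genes was not used here. Of 16 marker genes of hippocampal principal cells, 15 had a mean above background.

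Ttr, which encodes the thyroxine and retinol carrier transthyretin and is among the most abundant transcripts of choroid plexus epithelium, varied widely from animal to animal in both genotypes. Its signal was 8.38, 7.44 and 7.38 in knockout replicates 1, 2 and 3 and 8.42, 8.94 and 7.77 in wildtype replicates 1, 2 and 3. Wildtype replicate 2 was the highest array and knockout replicate 3 the lowest, and the groups overlapped, since knockout replicate 1 lay between the wildtype values. From the lowest to the highest array the signal spanned 1.55 on the log2 scale, or 2.94-fold. Within the wildtype group alone it spanned 2.24-fold and within the knockout group 2.00-fold. Of 19169 probe sets above background, 37 (0.193%) spanned at least as much over the 6 arrays, Ttr included, and the median span was 0.29.

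Ttr averaged 7.73 ± 0.56 over the knockout and 8.38 ± 0.58 over the wildtype arrays (SD, n = 3 each). The log2 difference was -0.64 (SE 0.35, 95% interval from -1.46 to 0.18, limma adjusted p = 0.620). An exact permutation test over the 6 arrays gave a two-sided p of 0.2, where 3 against 3 cannot give less than 0.1. The difference was thus of the size of the spread between animals. It was -0.96 without knockout replicate 1 and -0.94 without wildtype replicate 3, with unadjusted limma p of 0.0184 and 0.0249 and adjusted p of 0.625 and 0.428, and in either case the remaining groups did not overlap, as was so for 24.2% and 29.5% of all probe sets without these arrays. All limma values are two-sided, adjusted by Benjamini-Hochberg over 34472 probe sets.

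**Figure D1:**
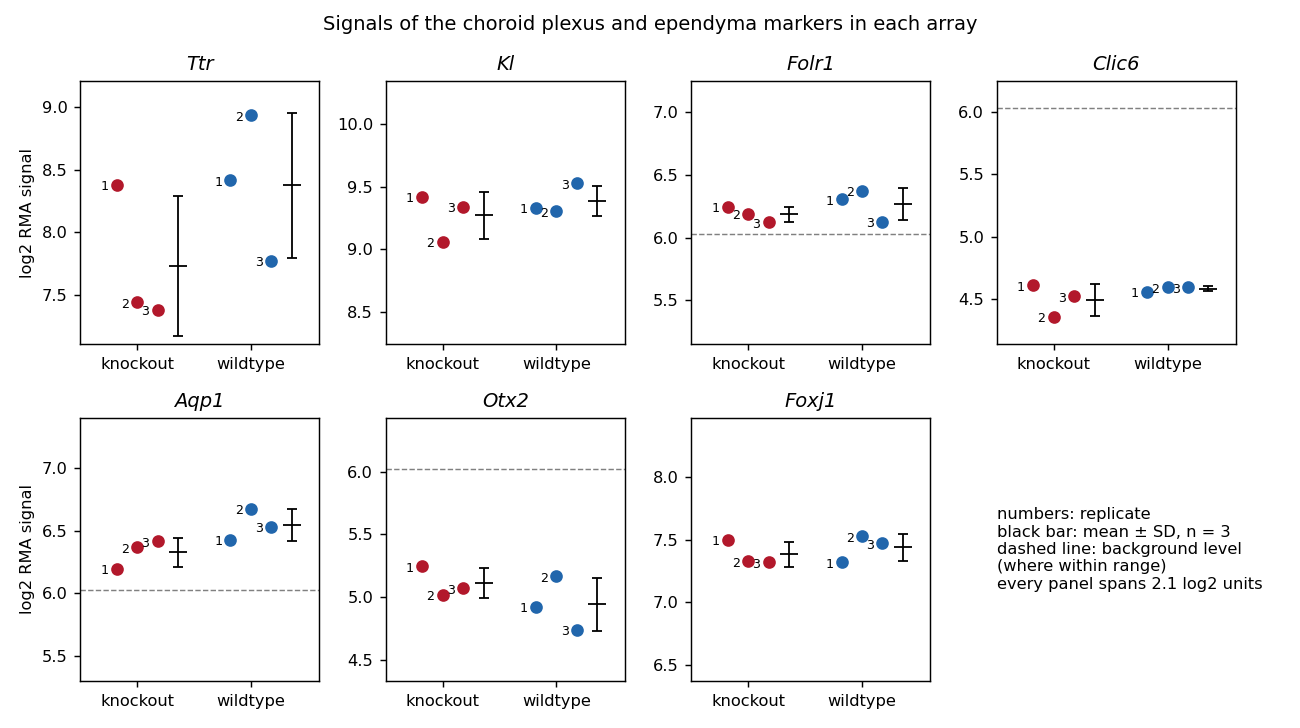
Log2 signal of each measured marker (vertical axis) in every array, with knockout arrays in red, wildtype arrays in blue, the mean and SD of 3 arrays as a black bar and the background level of 6.03 as a dashed line where within range. Ttr runs from 7.38 to 8.94 with overlapping groups, the other markers vary far less, and Clic6 and Otx2 lie below the background level in every array.

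**Figure D2:**
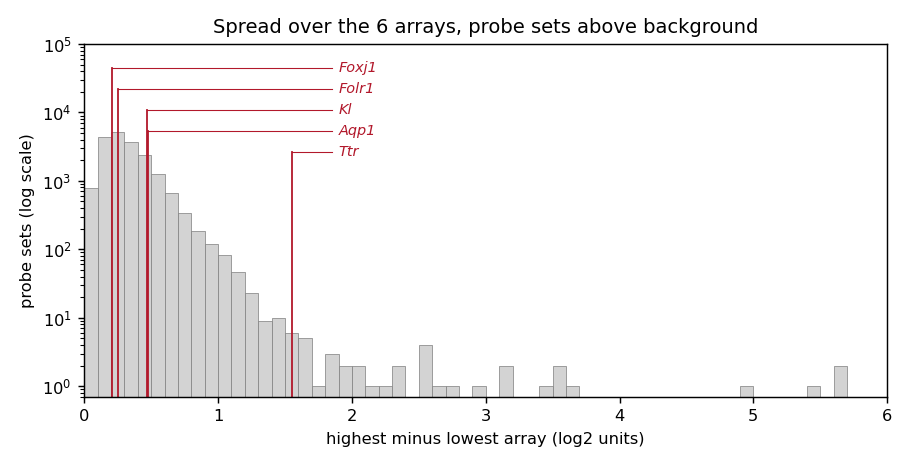
Number of probe sets above background (vertical log axis) by the difference between their highest and lowest array (horizontal axis, log2 units), with the 5 markers above background as red lines. Ttr, at 1.55, lies in the far tail, and Kl, Aqp1, Folr1 and Foxj1, from 0.21 to 0.48, lie in the bulk.

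Folr1, the folate receptor through which the choroid plexus epithelium carries folate into the cerebrospinal fluid, read 6.24, 6.19 and 6.12 in knockout replicates 1 to 3 and 6.30, 6.37 and 6.13 in wildtype replicates 1 to 3. All 6 values lay just above the background level, and the groups overlapped. The log2 difference was -0.08 (SE 0.09, 95% interval from -0.28 to 0.12, limma adjusted p = 0.791). Folr1 ordered the arrays much as Ttr did, with wildtype replicates 2 and 1 and knockout replicate 1 highest and knockout replicate 3 lowest, although its span was only 0.25.

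Over the 6 arrays Folr1 followed Ttr with a Pearson r of 0.91 and a Spearman rho of 0.94. An r as high was found for 0.664% of 14601 genes above background. Leaving out wildtype replicate 2 and knockout replicate 3, the arrays farthest from the Ttr median, r was 0.75 over 4 arrays. For the other 5 markers r ran from 0.23 for Kl to 0.63 for Foxj1. Their Spearman rho ran from -0.14 for Kl to 0.49 for Clic6 and Aqp1. Over the same 4 arrays their r ran from -0.39 for Aqp1 to 0.74 for Clic6. These 5 markers include Clic6 and Otx2, which lay below background in all 6 arrays. These correlations are descriptions over 6 arrays that share the genotype contrast, and the span of Folr1 is small.

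Kl encodes klotho, a membrane protein of the plexus epithelium that serves FGF23 as co-receptor and is also transcribed by hippocampal neurons. It read 9.42, 9.06 and 9.34 in knockout replicates 1 to 3 and 9.33, 9.30 and 9.53 in wildtype replicates 1 to 3. Its highest array was wildtype replicate 3 and its lowest knockout replicate 2, an order unlike that of Ttr. The groups overlapped, and the log2 difference was -0.12 (SE 0.11, 95% interval from -0.38 to 0.15, limma adjusted p = 0.777).

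Aqp1, the water channel of the apical face of the plexus epithelium, was the only measured marker whose groups did not overlap in the deposited scaling. It read 6.20, 6.37 and 6.42 in knockout replicates 1 to 3 and 6.43, 6.68 and 6.53 in wildtype replicates 1 to 3. The highest knockout array, replicate 3, and the lowest wildtype array, replicate 1, nearly touched. Aqp1 averaged 6.33 ± 0.12 and 6.54 ± 0.13 (SD, n = 3 each). The log2 difference was -0.22 (SE 0.10, 95% interval from -0.44 to 0.01, limma adjusted p = 0.560, or 0.0550 before adjustment). The exact permutation test gave a p of 0.1, the smallest possible with 3 against 3. After quantile normalization or median centring of the arrays the groups overlapped, with differences of -0.17 and -0.16. Groups that did not overlap were found for 15.3% of all probe sets, so 1 of 7 markers is near the background share.

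Since Aqp1 is the marker with the parted groups, its promoter window in RefSeq is shown (GRCm38.p6, chr6:55336049-55336348, plus strand, 250 bases before to 50 after the gene start). Capitals mark a match to the short core bound by RFX factors, regulators of ciliary genes, searched as GTTGCC or GGCAAC on either strand.
Aqp1: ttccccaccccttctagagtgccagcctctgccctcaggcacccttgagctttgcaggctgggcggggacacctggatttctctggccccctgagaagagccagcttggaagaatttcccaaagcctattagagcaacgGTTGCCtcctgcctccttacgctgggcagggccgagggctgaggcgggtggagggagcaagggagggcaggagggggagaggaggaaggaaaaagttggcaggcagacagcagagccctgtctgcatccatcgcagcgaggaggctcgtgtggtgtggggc
This core is held by 12.5% of 32851 promoter windows of this length, so the match is a description and not a site.

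Clic6, an intracellular chloride channel protein rich in plexus epithelium, lay below the background level in all 6 arrays, with signals from 4.36 to 4.61 in the knockout and from 4.56 to 4.60 in the wildtype. Its limma adjusted p was 0.771. A signal below the level of olfactory receptor probe sets gives no measure of the transcript, so no difference is drawn from it.

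Otx2, the homeodomain factor that builds and maintains the choroid plexus, was also below the background level in all 6 arrays. It ranged from 5.02 to 5.25 in the knockout and from 4.74 to 5.16 in the wildtype (limma adjusted p = 0.693), and as for Clic6 no direction is drawn from these signals. Of its 4 promoter windows in RefSeq, 1 holds the core motif bound by OTX2 itself, TAATCC or GGATTA, and is shown for this, with the core in capitals (GRCm38.p6, chr14:48665060-48665359, minus strand).
Otx2: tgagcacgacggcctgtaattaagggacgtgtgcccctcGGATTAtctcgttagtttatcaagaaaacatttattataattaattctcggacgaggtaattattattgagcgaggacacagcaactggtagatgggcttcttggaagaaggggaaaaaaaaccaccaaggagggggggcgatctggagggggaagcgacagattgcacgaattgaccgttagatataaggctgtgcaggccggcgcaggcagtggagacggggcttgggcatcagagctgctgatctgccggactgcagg
This core stands in 7.06% of all windows. Of the 9 listed genes, 4 matched the promoter table with 7 windows, and none of these 7 holds the forkhead core TGTTTAC or GTAAACA, which 3.65% of all windows hold. The RFX core marked for Aqp1 is not particular to it. Overlapping Otx2 windows hold 2 matches (chr14:48667459-48667758) and 1 match (chr14:48667595-48667894).

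Foxj1, the forkhead factor that switches on the genes of motile cilia and marks the ependyma, read 7.50, 7.33 and 7.32 in knockout replicates 1 to 3 and 7.32, 7.53 and 7.47 in wildtype replicates 1 to 3. It stood above background in every array and spanned only 0.21. The groups overlapped, and the log2 difference was -0.06 (SE 0.09, 95% interval from -0.27 to 0.15, limma adjusted p = 0.869).

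Over the 5 markers above background the median log2 difference was -0.12, with 5 below 0 and 0 above, beside a median of 0.01 over all probe sets above background. With Clic6 and Otx2, which lay below background, the median of the 7 was -0.09, and over all probe sets it was -0.01. By limma 0 of 7 passed an adjusted p of 0.05, against 0.139% of all probe sets, and 0 of 7 had an unadjusted p under 0.05, against 9.05%. A test that takes the spread of each probe set by itself also gave 0 of 7 at either threshold. The methods ask for more than 1.5-fold together with p under 0.05. Only Ttr exceeded that fold (1.56), and 0 of 7 met both, against 0.438% of all probe sets. For Kl, Folr1, Aqp1 and Foxj1, the markers above background other than Ttr, the 95% intervals lay between -0.44 and 0.15 on the log2 scale.

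**Figure D3:**
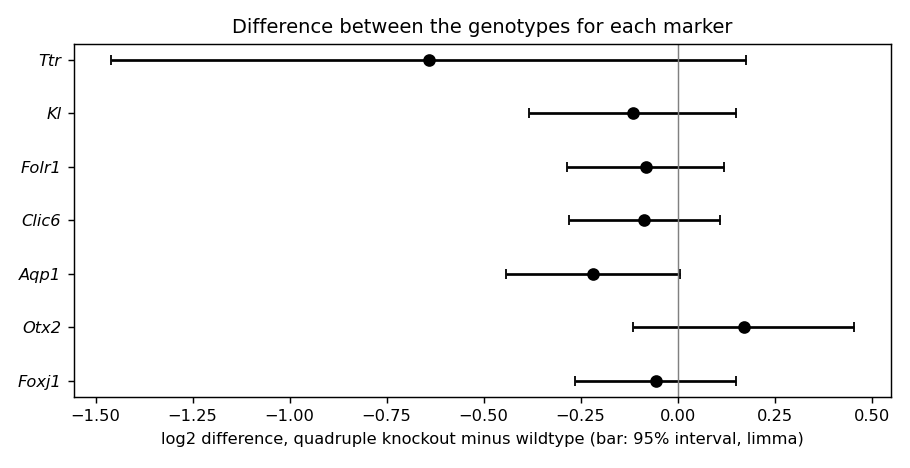
Log2 difference of each marker (horizontal axis, quadruple knockout minus wildtype, points) with its 95% interval from limma (bars). Every interval includes 0, and that of Ttr, from -1.46 to 0.18, is the widest.

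Further genes of the choroid plexus epithelium differed little between the genotypes. Of 40 listed genes 37 had a probe set of their own and 26 of these a mean above background. Their median log2 difference was -0.05, with 26 below 0 and 11 above, and 0 passed the limma adjusted p of 0.05. Over all probe sets the median difference was -0.01. At an unadjusted limma p under 0.05, 2 of the 37 were lower and 0 higher, where 9.05% of all probe sets had such a p in either direction. The retinol receptor gene Stra6 read 8.83, 8.89 and 8.88 in knockout replicates 1 to 3 and 9.03, 9.05 and 9.29 in the wildtype (log2 difference -0.26, SE 0.09, limma adjusted p = 0.509). Tmem72 differed by -0.25 (limma adjusted p = 0.535), the nucleoside transporter gene Slc28a3 by -0.18 and Wfikkn2, which encodes a secreted protein with protease inhibitor domains, by -0.18, all with a mean below background. These genes are named for their small p, and differences over the whole list ran from -0.29 to 0.29.

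Array by array, the mean signal of these 37 genes ran from 6.89 to 6.98 in the knockout and from 6.91 to 7.04 in the wildtype, so the groups overlapped. It was highest in wildtype replicate 2 and lowest in knockout replicate 3, the same extremes as Ttr, and 13 of the 37 genes were highest in wildtype replicate 2 and 16 lowest in knockout replicate 3. None of the 37 had its lowest array in wildtype replicate 2, while 11 had it in wildtype replicate 3. Against the mean of all arrays, the mean of the list lay 0.08 higher in wildtype replicate 2 and differed by -0.07 in knockout replicate 3, small steps beside those of Ttr. The list of the klotho family and FGF receptors had the same extremes at a like size (0.07 and -0.07).

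Genes of the ependyma and of motile cilia varied less from array to array. Of 51 listed genes 46 were measured and 31 were above background on average. The median log2 difference was -0.04, with 29 below 0 and 17 above, and 0 past the limma adjusted p of 0.05. With an unadjusted p under 0.05 there was 1 of the 46 genes, again beside 9.05% of all probe sets, Enkur, which encodes a ciliary calmodulin-binding protein, with means of 4.24 in the knockout and 3.88 in the wildtype and all arrays below background. Ccdc153 read 7.38, 7.32 and 7.47 in knockout replicates 1 to 3 and 7.56, 7.77 and 7.50 in the wildtype (knockout minus wildtype -0.22, SE 0.09, limma adjusted p = 0.555). Cfap43 (0.16) and Ccdc40 (-0.19), both genes of the ciliary axoneme, had limma adjusted p of 0.591 and 0.599, and Cfap43 lay below background in all 6 arrays. The mean signal of the 46 genes ran from 6.43 to 6.49 over the knockout and from 6.46 to 6.50 over the wildtype arrays. It was again highest in wildtype replicate 2 and lowest in knockout replicate 3, by only 0.03 and -0.04 from the mean of all arrays. The medians of these 2 arrays, 6.38 and 6.30, differed in the same direction. The part of this offset in the order of either list was not tested. Nor was the part of the offset by genotype in their counts below and above 0.

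**Figure D4:**
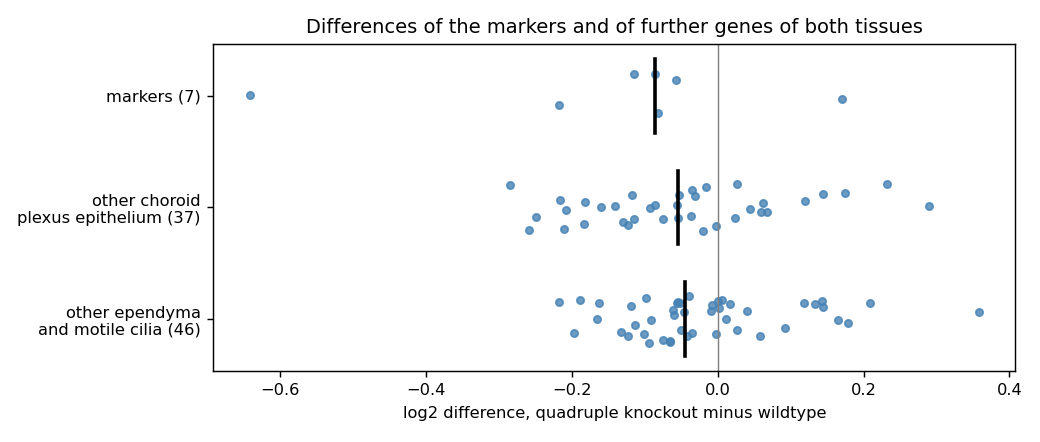
Log2 difference (horizontal axis, quadruple knockout minus wildtype) of the 7 measured markers, of 37 further choroid plexus genes and of 46 further ependyma genes, with the median of each as a black line. The medians are -0.09, -0.05 and -0.04, with genes below background included, and Ttr is the point at -0.64.

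Oligodendrocyte markers ordered the arrays differently from Ttr. The mean signal of 11 oligodendrocyte genes was highest in wildtype replicate 2 (9.98) and knockout replicate 3 (9.97), the arrays at opposite ends of the Ttr range, and lay between 9.43 and 9.61 in the other 4. The 18 genes of choroid stroma and meninges had means from 7.24 to 7.30 in the knockout and from 7.17 to 7.27 in the wildtype, 15 of them above background. Among them Dcn, which encodes the matrix proteoglycan decorin, read 8.92, 8.49 and 10.31 in knockout replicates 1 to 3 and 7.91, 8.18 and 7.72 in the wildtype (log2 difference 1.31, SE 0.42, limma adjusted p = 0.499). Collagen I chain gene Col1a1 differed by -0.28 (limma adjusted p = 0.509) and the amino acid transporter gene Slc6a20a by 0.37 (limma adjusted p = 0.486). Dcn, Col1a1 and Slc6a20a are named for their small p. The 8 genes of border macrophages, cells of the meninges and plexus, had means from 5.82 to 5.96 and from 5.78 to 5.98, with 4 above background. The mean of 12 markers of neighbouring brain regions lay from 0.04 to 0.08 above the mean of all arrays in the knockout and from -0.12 to -0.02 in the wildtype, so for these the groups did not overlap. Of the 12, 11 had a difference above 0, and 1 an unadjusted limma p under 0.05, against 9.05% of all probe sets. Groups did not overlap for 4 of the 12, against 15.3% of all probe sets. The part of these other cells and regions in the values of Ttr and Aqp1 was not tested. None of the 7 listed genes of blood cells had a probe set of its own.

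**Figure D5:**
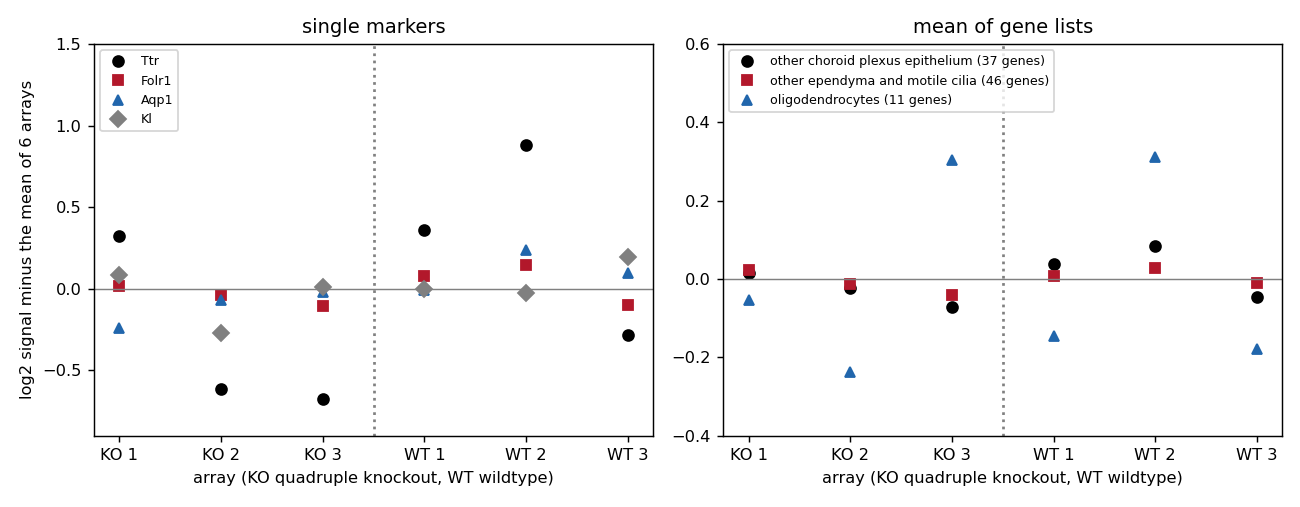
Log2 signal of 4 markers (left) and mean log2 signal of 3 gene lists (right) in each array, as the difference from the mean of the 6 arrays (vertical axes, on different scales). Ttr and the choroid plexus list are highest in wildtype replicate 2 and lowest in knockout replicate 3, where the oligodendrocyte list is high in both.

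Partners of the markers were followed by their roles. In the transport of thyroxine and retinol, the cargo of transthyretin, 8 of 10 genes were measured, and the thyroxine transporter gene Slco1c1 averaged 10.02 in the knockout and 9.78 in the wildtype (limma adjusted p = 0.486). Of 9 genes of the klotho family, FGF receptors and their ligands, Fgfr2 differed by 0.31 (limma adjusted p = 0.540). Among 6 measured genes of folate uptake and metabolism Folr2, a folate receptor of macrophages, read 5.70, 6.04 and 5.90 in knockout replicates 1 to 3 and 6.08, 6.36 and 6.18 in the wildtype, a difference of -0.33 (limma adjusted p = 0.509). Of 10 genes of lysophosphatidic acid signalling, the pathway of the unmeasured Enpp2, the phosphatase gene Plpp1 differed by 0.20 (limma adjusted p = 0.518). Of 13 related channels and ion transporters, the potassium channel genes Kcnj2 and Kcnj16 differed by -0.33 and 0.20 (limma adjusted p = 0.456 and 0.536). None of the genes in these 5 lists passed the limma adjusted p of 0.05, and by unadjusted p under 0.05 there were 4 higher and 3 lower among the 46 genes in all, Stra6 included, against 9.05% of all probe sets.

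Genes with a course like that of Ttr were sought among those that varied widely, which leaves out Folr1 with its small span. Among 85 genes above background that spanned at least 1 on the log2 scale, the 10 with the highest Pearson r to Ttr over the 6 arrays ran from Krtap5-2 (0.81), a hair keratin associated protein gene, over Mir496a (0.72), Gm6525 (0.72), Olfr1502 (0.67), Olfr1269 (0.61), Gm4559 (0.61), Bcan (0.59), Ncan (0.58) and Mir297a-4 (0.52) to 2900052N01Rik (0.52). Bcan and Ncan enter through the knockout itself. Mir496a, Gm6525, Olfr1502 and 2900052N01Rik also read lower in every knockout than in every wildtype array, so a step by genotype enters their r. Krtap5-2 read 5.66 and 5.35 in knockout replicates 2 and 3, below the background level. In knockout replicate 3 Mir496a, Gm6525 and Gm4559 lay below it as well, at 5.33, 5.32 and 5.67. Olfr1502 and Olfr1269 are of the probe set class that set this level. Apart from Ttr itself, no gene of the choroid plexus or ependyma lists met the background level and a span of at least 1. The search could therefore not return such a gene, whatever its course. None of the 85 reached an r of 0.9, while 115 of the 14601 genes above background did so at any span.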

How the data were processed

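Hippocampal RNA of each mouse was read on 1 array of the type Mouse Gene 2.0 ST (Affymetrix). The authors normalized and summarised the arrays with Robust Multichip Average in Expression Console and deposited log2 signals, and the submitters' notes list the Transcriptome Analysis Console as well. For these tools no version is given in the sources used here, nor a genome build. This method brings probe values to a common distribution before probes are summarised, so a shift of most genes would be largely removed, while the deposited arrays still differ in median. The precision is limited by the number of arrays.

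Of 34472 probe sets, 23521 have 1 gene symbol in the platform annotation, 1820 several and 9131 none. Each gene was represented by its brightest probe set on average. A linear model without a block was fitted to all 6 arrays with limma 3.58.1 under R 4.3.3 (functions lmFit and eBayes). The two-sided p values were adjusted over all probe sets by Benjamini-Hochberg. The fit was tested on simulated data. An unmoderated test per probe set stood in for the Anova of the methods. Groups came from the sample titles, which call the arrays biological replicates.

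The genes named were all markers with values, up to 4 genes of each further list with the smallest limma p, and the 10 genes most like Ttr. The markers and lists were chosen with earlier results of these data known. Promoter windows are those of RefSeq on GRCm38.p6. Alternatives were a replicate block, trended robust variances, array weights, quantile normalization, median centring, only probe sets above background, genes reduced to their brightest probe set or to the average of their probe sets, the unmoderated test and each array left out. Figures were drawn with matplotlib 3.10.9.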

Additional observations from a re-analysis of the deposited data

How the results depend on the processing

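Over 103 alternative values adjusted p ran from 0.407 to 0.992, so 0 markers passed 0.05. Only array weights, quantile normalization, median centring and left-out arrays could move a difference, and there each marker above background kept its direction. The difference of Ttr ran from -0.96 without knockout replicate 1 to -0.36 without wildtype replicate 2. Without knockout replicate 2 the difference was only -0.01 for Kl and -0.02 for Clic6. That of Folr1 was -0.02 after quantile normalization (-0.03 without wildtype replicate 2). That of Foxj1 was -0.0034 after median centring (-0.01 without wildtype replicate 2). For these markers a kept sign says little. The count of markers at an unadjusted limma p under 0.05 was 0 in the main fit. It was 1 (Aqp1) with the replicate block, where 2704 of all 34472 probe sets had such a p, and with array weights (3523). It was also 1 (Aqp1) among probe sets above background only (2273 of 19169). The same held with genes reduced to their brightest probe set (2129 of 22180) or to their average (2098 of 22180). With each array left out in turn the count ran from 0 to 1, where from 2226 to 3604 of all 34472 probe sets had such a p. The marker was Ttr without knockout replicate 1 or wildtype replicate 3, Aqp1 without knockout replicate 3 or wildtype replicate 1, and Otx2 without wildtype replicate 2. A count of 1 among 7 markers is not read as a result about that marker. The count of markers whose groups did not overlap, which was 1, was 0 after quantile normalization and after median centring, and from 1 to 3 with each array left out, where from 23.4% to 29.7% of all probe sets had such groups. It was 3 without knockout replicate 1 (24.2%) and without wildtype replicate 3 (29.5%). The median difference over the markers, -0.09 in the main fit, ran from -0.14 to -0.03 with each array left out. It was -0.06 after quantile normalization and -0.03 after median centring. Same-numbered arrays did not deviate together (r of -0.03, -0.22 and -0.12 for replicates 1, 2 and 3 over probe sets above background), so the numbers were not taken as pairs. Among arrays of unlike number, r reached 0.17 (knockout replicate 2 with wildtype replicate 3). The paper calls the samples dependent and from siblings but does not say which belong together. A block by other pairs was not tested. Over all probe sets, 48 passed the adjusted p of 0.05, 39 with the replicate block, 24 by the unmoderated test, 7 with genes reduced to their brightest probe set and 10 to their average. Each gene rests on 1 probe set, and signals near or below 6.03 limit Folr1, Aqp1, Clic6 and Otx2.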
